A study of Mus musculus with 36 samples.

Results

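The genes described here encode the mitochondrial respiratory chain. They were taken by name, as every measured gene whose symbol starts with Nduf, Sdha, Sdhb, Sdhc, Sdhd, Uqcr, Cox4, Cox5, Cox6, Cox7, Cox8 or Atp5, and they number 94 of the 18193 genes measured. Complex I gave 34 of them (6 core and 28 accessory subunits), complex II 4, complex III 8, complex IV 19 with Ndufa4 and Ndufa4l2, ATP synthase 17, and 12 were assembly factors. A further 8 names, Ndufs6 and Ndufa11 among them, lie only on probe sets shared by several genes and were not analysed here.

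Expression was measured on 36 arrays of total RNA from blood progenitors of C57BL6 mice of both sexes, none of them labelled as genetically altered or treated. The series characterised early thymic progenitors and the marrow cells that may seed the thymus. Haematopoietic stem cells (labelled LSKFlt3-CD48-CD150+; HSC, 6 arrays) and thymic seeding progenitors (LSKFlt3hi IL7R+; LSK, 6 arrays) stand for bone marrow. CLP (4 arrays) were labelled a putative thymus seeding progenitor and Pro_B (pro-B, 3 arrays) a B-cell progenitor. The thymic series comprised ETPFlt3hi (ETP, 6 arrays), DN2Kit+ (DN2, 3 arrays) and DN3 (6 arrays), with Adult_ETP (adult ETP, 2 arrays) beside them. Every array, the adult ETP arrays included, carried an age label of 1 week.

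Complexes I to IV pass electrons from NADH and succinate to oxygen in the inner mitochondrial membrane and, except for complex II, pump protons as they do so. ATP synthase uses the proton gradient to make ATP. Stem cells of the marrow are known for low mitochondrial respiration and a reliance on glycolysis, and their dividing descendants for more active mitochondria. Most subunits are encoded in the nucleus and assembled with a few subunits made inside the mitochondrion.

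The arrays fall into 2 deposit sets. Set 1 holds 15 arrays (HSC, LSK, ETP, DN2 and DN3, 3 of each), which carry a tissue label and a remark that each is a pool of several mice. Set 2 holds 21 arrays (HSC, LSK, ETP, DN3 and pro-B 3 each, CLP 4, adult ETP 2), which carry neither. Array medians were 5.12 to 5.22 in set 1 and 5.84 to 5.95 in set 2, so levels, given throughout as deposited log2 RMA values, were compared only within a set. Marker genes followed the labels of HSC, DN3 and pro-B. Mecom averaged 10.30 and 10.15 in HSC against at most 5.89 and 5.21 elsewhere, and Ptcra 11.59 and 10.36 in DN3. Pax5 averaged 10.76 in pro-B against at most 8.56 elsewhere in set 2. DN2 and DN3 shared markers. In set 1 the array means of 4 DN3 markers were 9.73 to 10.23 in DN2 and 11.77 to 12.31 in DN3. Those of 4 DN2 markers were 9.78 to 9.87 in DN2 and 9.23 to 9.46 in DN3. Array means of 4 ETP markers overlapped in set 1, at 9.26 to 9.54 in ETP and 9.14 to 9.36 in LSK. In set 2 they were 9.93 to 10.1 in ETP and 9.24 to 9.56 in LSK. The 4 lymphoid marrow markers did not separate CLP (11.08 to 11.73) from LSK (11.6 to 11.72) in set 2. Pro-B markers were not absent from LSK and CLP, where the 4 of them averaged 9.29 to 9.67 and 7.63 to 9.30 per array in set 2. RNA of other cells differed between arrays of a population. The mean of 6 late granulocyte markers ran from 4.05 to 6.07 in HSC and from 4.33 to 7.72 in LSK of set 1. In set 2 it ran from 5.02 to 7.97 in HSC, from 4.79 to 6.07 in LSK, from 5.51 to 8.89 in CLP and from 6.80 to 8.06 in pro-B, against 4.98 to 5.30 in thymic arrays. Stroma markers reached 7.85 on 1 HSC array of set 2. Whether separate animals stand behind the arrays of set 2 is not stated, and p-values then measure only the spread between these samples.

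Respiratory chain genes were lowest in HSC, higher by a similar amount in LSK and at every thymic stage, and highest in pro-B. The value plotted for each array is the median over the 94 genes of the log2 level minus the mean of the HSC arrays of its set. In set 1 it averaged 0.37 ± 0.03 in LSK, 0.40 ± 0.02 in ETP, 0.43 ± 0.06 in DN2 and 0.38 ± 0.01 in DN3 (SD, n = 3 each). In set 2 it averaged 0.38 ± 0.04 in LSK, 0.32 ± 0.01 in CLP (n = 4), 0.38 ± 0.02 in ETP, 0.34 ± 0.10 in DN3 and 0.70 ± 0.12 in pro-B (n = 3 otherwise). The 2 adult ETP arrays gave 0.16 and 0.23. No array of another population overlapped the HSC arrays, which lay between -0.07 and 0.05, while all 18193 genes had population means between 0.00 and 0.11 on the same scale.

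**Figure D1:**
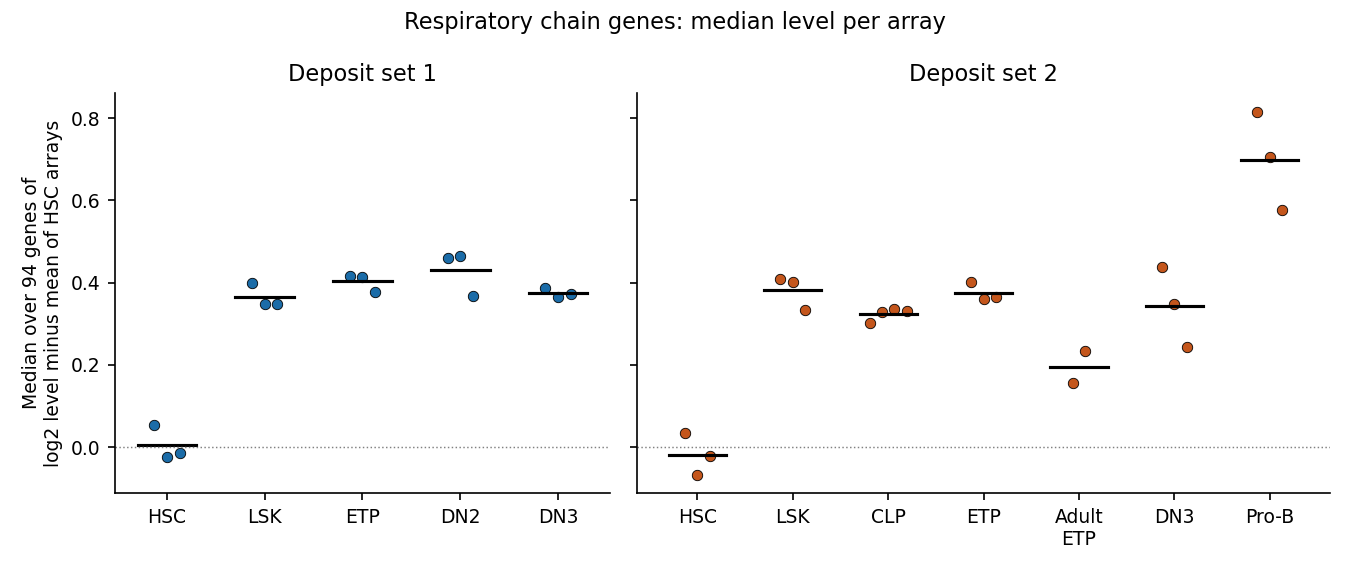
Each point is 1 array and gives the median over the 94 respiratory chain genes of the log2 level minus the mean of the HSC arrays of the same set; black lines are population means. HSC arrays lie between -0.07 and 0.05, LSK, CLP, ETP, DN2 and DN3 arrays between 0.24 and 0.47, the 2 adult ETP arrays at 0.16 and 0.23, and the 3 pro-B arrays between 0.58 and 0.82.

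From stem cells to lymphoid-primed progenitors, about as many chain genes were called in set 1 as in set 2, nearly all of them higher. A gene was called when its adjusted p was under 0.05 (limma with Benjamini-Hochberg adjustment over all genes, 1 fit per set). In LSK against HSC, 34 of 94 genes were called higher and 1 lower in set 1, where 9.01% of all genes were called higher and 7.37% lower. In set 2 the counts were 29 higher and 1 lower, against 9.22% and 7.67% of all genes. The median difference was 0.37 in set 1 and 0.39 in set 2, and over all genes 0.00 and 0.03. The probe sets of 86 and 83 of the 94 genes gave signals above the median over genes, and of all genes with such signals 16.3% and 16.8% were called higher. Sets 1 and 2 share no array: 20 genes were called higher in both, which is 20 of the 34 and 20 of the 29 (5.71% of all genes were higher in both), and Cox6b2 was called lower in both (4.54% of all genes). No gene was called in opposite directions. The difference between sets was called for 0 of 94 genes by limma, against 0.423% of all genes. Of the 94, 4 had an unadjusted p under 0.05, a count not given here for all genes.

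Most differences were small: 6 of the 35 called in set 1 and 1 of the 30 in set 2 reached 2-fold. Over all 18193 genes, 1640 were called higher and 1341 lower in set 1, and 1496 of the calls reached 2-fold. In set 2, 1677 were called higher and 1396 lower, and 1606 reached 2-fold. In set 2, leaving out LSK replicate 4 or LSK replicate 5 left 19 calls in place of 30, with median differences of 0.37 and 0.39. Leaving out the arrays with the most granulocyte or stroma RNA (HSC replicates 1 and 2 and LSK replicates 1 and 3 of set 1, HSC replicates 4 and 5 of set 2) left 1 HSC against 1 LSK array in set 1 and 1 HSC against 3 LSK arrays in set 2. The fit then assumes that a lone array varies like the other populations. It gave 8 and 19 calls and median differences of 0.36 and 0.39, which rest on those lone arrays and do not show stability. In bulk RNA of this kind, fewer cells of one type and less RNA per cell cannot be told apart.

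**Figure D2:**
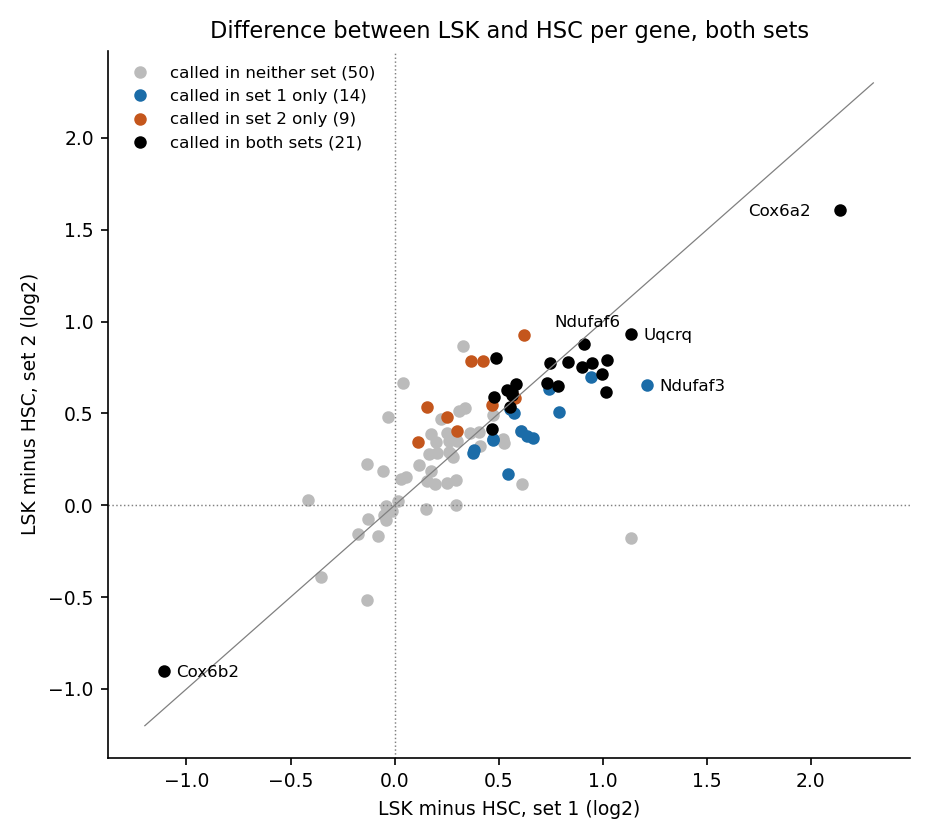
Each point is 1 of the 94 genes, placed by its LSK minus HSC difference (log2) in set 1 and in set 2; the grey line marks equal differences and colours mark where a gene was called. The 21 genes called in both sets lie in the upper right quadrant except Cox6b2, and 50 genes were called in neither set.

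Complex I, which oxidises NADH, had 13 of its 34 genes higher in LSK in set 1 and 10 in set 2, 8 of them in both sets, with medians of 0.41 and 0.39 and none called lower. Ndufs1, the largest core subunit and a carrier of iron-sulfur clusters, read 7.46, 8.18 and 6.91 on the HSC arrays of set 1 and 8.94, 8.31 and 8.36 on the LSK arrays. All LSK values lay above all HSC values, by 1.02 ± 0.27 (SE; adjusted p = 0.0182). The HSC values of set 2 were 7.61, 8.35 and 7.74 and its LSK values 8.74, 8.58 and 8.22, so the groups overlapped, with a difference of 0.62 ± 0.21 (adjusted p = 0.0461). In set 1 this call was lost without HSC replicate 3 (0.72, adjusted p = 0.0754) or without LSK replicate 1 (0.82, adjusted p = 0.0818). The other core subunits higher in both sets were Ndufv1, which binds NADH (0.78 and 0.65), and Ndufv2 (0.54 and 0.63). Accessory subunits higher in both sets were Ndufb6 (0.90 and 0.76), Ndufa9 (0.75 and 0.77), Ndufa12 (0.59 and 0.66), Ndufa1 (0.49 and 0.80) and Ndufb5 (0.47 and 0.42). Ndufs5 was called in set 2 only, where its LSK values of 7.81, 8.24 and 7.67 lay above its HSC values of 6.98, 7.14 and 6.80 (0.93 ± 0.21, adjusted p = 0.00308). In set 1 it differed by 0.62 and was not called.

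Of the 4 subunits of complex II, the succinate dehydrogenase that also serves the citric acid cycle, only Sdhb was called in both sets; whether its difference exceeds those of the other subunits was not tested. Sdhb, the iron-sulfur subunit, read 9.0, 8.82 and 8.94 in HSC and 9.70, 9.89 and 9.67 in LSK of set 1. Set 2 gave 9.13, 9.06 and 8.82 in HSC and 9.89, 9.67 and 9.80 in LSK. Every LSK array stood above every HSC array of its set, by 0.83 ± 0.12 (adjusted p = 0.000229) and 0.78 ± 0.13 (adjusted p = 0.000205). The flavoprotein Sdha differed by 0.16 and 0.13, and the membrane anchors Sdhc by 0.27 and 0.28 and Sdhd by 0.12 and 0.22, none of them called.

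Complex III, which hands electrons from ubiquinol to cytochrome c, had 5 of its 8 genes called higher in set 1 and 4 in set 2, with the largest medians of the complexes (0.55 and 0.52). Uqcrq, a small subunit near the ubiquinone site, read 8.03, 8.12 and 7.93 in HSC and 9.16, 9.08 and 9.24 in LSK of set 1, a difference of 1.14 ± 0.18 (adjusted p = 0.000743). Set 2 gave 8.13, 7.74 and 7.80 in HSC and 8.92, 9.04 and 8.51 in LSK, a difference of 0.93 ± 0.20 (adjusted p = 0.00186). The arrays of the 2 populations did not overlap in either set. This gene rests on 1 of its 4 probe sets, the others reading 4.01 to 6.76 in these populations. With all 4 averaged, the difference was 0.40 in set 1 (adjusted p = 0.276) and -0.03 in set 2 (adjusted p = 0.94). Uqcr11 (1.00 and 0.72) and the Rieske iron-sulfur protein Uqcrfs1 (0.56 and 0.62) were also higher in both sets. Uqcrb differed the other way without being called (-0.35 and -0.39).

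Complex IV, the cytochrome c oxidase, had the smallest share of calls among the structural complexes with more than 4 genes: 5 higher and 1 lower of 19 in set 1, 3 higher and 1 lower in set 2, with medians of 0.25 and 0.26. Its shares called higher were 26.3% and 15.8%, against 9.01% and 9.22% of all genes. Of genes with signals above the median over genes, 16.3% and 16.8% were called higher. Complex IV also held the largest called rise, that of Cox6a2, and the only called fall, that of Cox6b2. Cox6a2, known as the heart and skeletal muscle form of subunit VIa, read 6.16, 6.61 and 6.60 in HSC and 8.62, 8.72 and 8.45 in LSK of set 1, which is 4.40-fold (2.14 ± 0.16 on the log2 scale, adjusted p = 8.6e-07). In set 2 it read 7.32, 7.17 and 7.25 in HSC and 9.08, 8.70 and 8.79 in LSK, which is 3.05-fold (1.61 ± 0.19, adjusted p = 5.36e-06). The populations stood far apart on every array with this chosen probe set. The other Cox6a2 probe set, of signal below the median over genes, differed by 0.72 in set 1 and 0.58 in set 2. On it HSC replicate 4 (6.36) lay above the LSK arrays of set 2 (5.65 to 5.955). The mean of the muscle genes Acta1, Myh1 and Ckm was 3.72 to 3.94 in HSC and 3.82 to 4.01 in LSK of set 1. In set 2 it was 4.76 to 4.87 in HSC and 4.66 to 4.95 in LSK. These were low signals, as the lower quartiles of the arrays were 3.55 to 3.65 in set 1 and 4.41 to 4.67 in set 2. A part of muscle RNA in the Cox6a2 values was not tested. Cox6a1, the form found in most tissues, differed by 0.74 in set 1 (adjusted p = 0.0134; 0.61 and 0.0617 without LSK replicate 2) and by 0.63 in set 2, not called.

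Cox6b2, known as the testis form of subunit VIb, went the other way. It read 9.20, 9.49 and 9.74 in HSC and 8.34, 8.39 and 8.38 in LSK of set 1, a fall by 1.11 (SE 0.21, adjusted p = 0.00212). The set 2 values were 8.96, 8.75 and 8.95 in HSC and 7.74, 8.53 and 7.68 in LSK, a fall by 0.90 (SE 0.29, adjusted p = 0.041). LSK replicate 5 came near the HSC arrays without reaching them. The set 2 call was lost without any one of HSC replicates 4, 5 and 6 and LSK replicates 4 and 6, with differences from -0.97 to -0.75 and adjusted p from 0.0629 to 0.164, and with arrays centred on their medians (adjusted p = 0.0535). Cox6b1, its widespread counterpart, differed by 0.28 and 0.26, not called. Cox5a, a nuclear subunit at the matrix face, was higher in both sets: 9.92, 10.12 and 10.37 in HSC against 11.05, 11.18 and 11.24 in LSK of set 1 (1.02 ± 0.13, adjusted p = 8.13e-05), and 10.21, 10.10 and 9.97 against 10.88, 10.92 and 10.85 in set 2 (0.79 ± 0.14, adjusted p = 0.000455). Its other 2 probe sets differed by 1.06 and 1.19 in set 1 and by 0.95 and 1.03 in set 2. Ndufa4, first assigned to complex I and now to complex IV, was higher in set 1 (0.64) and differed by 0.38 in set 2, and Cox4i1 differed by 0.38 (called) and 0.28.

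All 17 ATP synthase genes differed upward from HSC to LSK in both sets, and 7 and 9 were called, 5 of them in both. Atp5o, the stalk subunit that confers oligomycin sensitivity, read 9.24, 8.88 and 9.25 in HSC and 10.10, 9.96 and 10.15 in LSK of set 1 (0.95 ± 0.15, adjusted p = 0.000642). Set 2 gave 9.96, 9.19 and 9.16 in HSC and 10.16, 10.13 and 10.35 in LSK (0.77 ± 0.18, adjusted p = 0.00362). HSC replicate 4 stood close below the LSK arrays. The ring subunits Atp5g1 (0.73 and 0.67) and Atp5g3 (0.57 and 0.60), the stalk subunit Atp5pb (0.56 and 0.54) and Atp5e of the rotor (0.48 and 0.59) were called in both sets. The small subunit Atp5mpl was called in set 2 only (0.79 ± 0.15, adjusted p = 0.000691).

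Of the 12 assembly factors, 3 were higher in set 1 (25%) and 2 in set 2 (16.7%). Of genes with signals above the median over genes, 16.3% and 16.8% were called higher. Ndufaf6, needed to build complex I, was called in both: 6.75, 6.93 and 6.13 in HSC against 7.67, 7.48 and 7.39 in LSK of set 1 (0.91 ± 0.24, adjusted p = 0.0177), and 7.09, 6.99 and 6.35 against 7.23, 7.87 and 7.96 in set 2 (0.88 ± 0.27, adjusted p = 0.029). The groups did not overlap. The set 2 call was lost without HSC replicate 6 (0.65, adjusted p = 0.154), LSK replicate 5 (0.79, adjusted p = 0.109) or LSK replicate 6 (0.74, adjusted p = 0.126). Ndufaf3 was called in set 1 only, with HSC values of 6.01, 5.52 and 5.87 and LSK values of 7.11, 6.93 and 6.99 (1.21 ± 0.24, adjusted p = 0.00354).

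Promoter letters were read for all respiratory chain genes with a window, called or not. RefSeq windows (GRCm38.p6, 250 bases before to 50 after the start) were found for 78 of the 94 genes. Exact matches on either strand were counted for 4 motifs of factors tied to respiratory genes in the literature: CGCATGCG for NRF1, CCGGAAGT for GABPA, AAGATGGC for YY1 and TCAAGGTCA for ERR. No match overlapped another. A gene counted once if any of its windows held a match. The background was every gene with a window, not matched for number of windows, expression or type of promoter. NRF1 letters stood in 10 of 78 genes (12.8%, against 2.07% of 27025 genes) and YY1 letters in 10 (12.8% against 3.19%). GABPA letters stood in 5 (6.41% against 4.31%) and ERR letters in 2 (2.56% against 0.466%). At least 1 of the 4 stood in 25 genes (32.1% against 9.48%). Of the 16 genes with a window among the 20 that were higher in both sets, 4 held one (25%), and of the other 62 genes 21 did (33.9%). The 250 bases before the start are shown for 3 genes with a match before the start and, for contrast, for Cox6b2, which fell. They read 5′ to 3′ on the gene's strand, with the match in capitals: GABPA in Uqcr11 (whose NRF1 letters run across the start and past the stretch shown), NRF1 in Cox6a1 and ERR, on the opposite strand, in Atp5g3.
Uqcr11 (chr10:80406822-80407071, - strand): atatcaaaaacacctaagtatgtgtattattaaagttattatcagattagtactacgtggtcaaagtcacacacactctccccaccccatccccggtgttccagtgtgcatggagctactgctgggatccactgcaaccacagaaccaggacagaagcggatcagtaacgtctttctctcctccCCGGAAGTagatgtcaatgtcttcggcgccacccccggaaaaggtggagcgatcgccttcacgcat
Cox6a1 (chr5:115348959-115349208, - strand): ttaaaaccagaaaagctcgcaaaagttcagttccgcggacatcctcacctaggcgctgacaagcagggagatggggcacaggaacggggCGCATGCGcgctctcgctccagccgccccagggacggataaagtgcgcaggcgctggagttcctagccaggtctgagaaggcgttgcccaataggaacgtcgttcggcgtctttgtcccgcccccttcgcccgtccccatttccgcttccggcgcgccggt
Atp5g3 (chr2:73911327-73911576, - strand): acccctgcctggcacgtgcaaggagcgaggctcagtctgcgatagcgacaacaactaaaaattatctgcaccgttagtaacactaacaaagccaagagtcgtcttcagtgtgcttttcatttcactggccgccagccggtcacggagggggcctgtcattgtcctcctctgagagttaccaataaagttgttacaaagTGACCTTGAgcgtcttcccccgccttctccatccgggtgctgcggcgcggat
Cox6b2 (chr7:4753095-4753344, - strand): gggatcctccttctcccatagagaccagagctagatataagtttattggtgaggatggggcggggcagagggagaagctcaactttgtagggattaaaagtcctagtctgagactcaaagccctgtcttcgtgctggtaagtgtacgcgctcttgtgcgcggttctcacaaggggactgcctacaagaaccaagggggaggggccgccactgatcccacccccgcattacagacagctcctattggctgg
The match began 66 bases before the start in Uqcr11, 161 in Cox6a1 and 52 in Atp5g3. Cox6b2 held none of the 4 in its window, as was the case for most genes called higher in both sets. A match describes letters only, and no binding was measured here.

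Other mitochondrial genes moved alongside in LSK against HSC. Over all genes, 9.01% and 9.22% were called higher and 7.37% and 7.67% lower in sets 1 and 2. Of 76 mitochondrial ribosome genes, which translate the subunits made inside the organelle, 40 were higher in set 1 and 32 in set 2, none lower (medians 0.59 and 0.52). Of 22 carrier and import genes 11 and 9 were higher, and of 20 genes of the citric acid cycle and pyruvate entry 8 and 7 were higher and 1 lower. Fumarase (Fh1) led that list with 1.48 and 1.24, and Pdk3, a kinase that restrains pyruvate dehydrogenase, fell by 0.85 and 1.65. Of 19 glycolysis genes, 2 were higher in each set, near the share over all genes. In sets 1 and 2, 7 and 3 were lower, led by Aldoc (-2.02 and -1.85). Cell cycle genes moved too, with 18 and 20 of 27 higher (medians 1.40 and 1.58), as did Myc (1.19 and 1.42). Their part in the difference of the respiratory chain genes was not tested.

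From LSK to the thymus, the respiratory chain genes as a group stayed near their level. In ETP against LSK, 0 genes were higher and 1 lower in each set, with 0.934% and 0.835% of all genes higher and 1.07% and 0.995% lower. At an unadjusted p under 0.05 limma gave 5 genes in set 1 and 1 in set 2. Of all 18193 genes it gave 1931 and 1262. The medians were 0.05 and -0.02. No gene was higher in both sets (0.418% of all genes) and Cox6a2 was lower in both (0.495%), while the difference between sets was called for 0 genes (2 at an unadjusted p under 0.05; 0.033% of all genes). A call that was missed does not show that levels were equal.

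In DN2 against ETP, measured in set 1 alone, 0 genes were higher and 1 lower (1.79% and 1.86% of all genes). In DN3 against DN2 the counts were 0 and 1 (1.63% and 2.61%). In DN3 against ETP, 1 was higher and 2 lower in set 1 (4.2% and 5.74% of all genes) and 1 higher and 1 lower in set 2 (3.09% and 5.24%), with medians of -0.01 in both. None was higher in both sets (2.22% of all genes) and Cox6a2 was lower in both (3.61%). The difference between sets was called for 0 genes (4 at an unadjusted p under 0.05; 0% of all genes). The 3 comparisons of set 1 share arrays and are not independent of one another.

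On its chosen probe set, Cox6a2 came down along the thymic stages to its level in stem cells. In set 1 it read 7.29, 7.06 and 6.73 in ETP, 6.40, 6.32 and 6.32 in DN2 and 6.59, 6.31 and 6.41 in DN3. ETP lay below all LSK arrays, by 1.57 (SE 0.16, adjusted p = 0.000132), and above all DN2 and DN3 arrays. The fall from ETP to DN2 was 0.68 (SE 0.16, adjusted p = 0.0316) and that from ETP to DN3 0.59 (SE 0.16, adjusted p = 0.0338). Set 2 gave 7.91, 7.99 and 7.96 in ETP and 7.20, 7.62 and 7.09 in DN3. The fall from LSK to ETP was 0.90 (SE 0.19, adjusted p = 0.0144) and from ETP to DN3 0.65 (SE 0.19, adjusted p = 0.0419). In neither set did neighbouring groups of this order overlap, except DN2 and DN3 with each other, but several calls rested on single arrays. That of LSK to ETP in set 2 was lost without LSK replicate 4 (-0.79, adjusted p = 0.106), ETP replicate 4 (-0.88, 0.0679) or ETP replicate 6 (-0.91, 0.0559). The call from ETP to DN2 was lost without any of ETP replicates 1 and 2 and DN2 replicates 1 to 3 (-0.70 to -0.55), and with centred arrays (adjusted p = 0.0501). The call from ETP to DN3 was lost without ETP replicates 1 or 2 or DN3 replicates 2 or 3 in set 1 (-0.57 to -0.46), and without any ETP replicate or DN3 replicates 4 or 6 in set 2 (-0.67 to -0.54). The other Cox6a2 probe set, of signal below the median over genes, differed by -0.65 and -0.91 from LSK to ETP in sets 1 and 2. From ETP to DN2 it differed by -0.29. From ETP to DN3 it differed by -0.15 in set 1 and by 0.17, the other way, in set 2.

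Cox6b2 ran opposite in set 1, with 8.89, 8.48 and 9.39 in ETP, 9.59, 9.54 and 9.64 in DN2 and 9.50, 10.02 and 9.78 in DN3. DN3 lay above ETP on all arrays, by 0.84 ± 0.21 (adjusted p = 0.0178). The call was lost without ETP replicate 1 (0.83, adjusted p = 0.0612), ETP replicate 2 (0.62, 0.0832) or DN3 replicate 2 (0.72, 0.0734). In set 2 it read 8.24, 8.10 and 8.17 in ETP and 8.90, 8.04 and 8.14 in DN3, which overlapped (0.19, not called). Ndufaf7, which methylates a core subunit of complex I during assembly, read 8.21, 8.20 and 7.73 in DN2 and 7.17, 6.99 and 7.08 in DN3 of set 1. DN3 lay lower on every array, by 0.97 (SE 0.17, adjusted p = 0.00475). Against ETP, at 7.56, 7.72 and 7.68, DN3 was lower by 0.57 (adjusted p = 0.0476), a call lost without any 1 of the 6 arrays (adjusted p up to 0.139). In set 2, Ndufaf7 in DN3 (7.81, 8.12 and 7.56) overlapped ETP (8.02, 7.46 and 8.06). Ndufa5, a complex I subunit near the ubiquinone module, was higher in DN3 than ETP in set 2 only: 11.69, 12.14 and 11.97 against 11.21, 11.13 and 11.62 (0.62 ± 0.18, adjusted p = 0.0402). That call was lost without ETP replicates 4 or 5 or DN3 replicates 5 or 6 (0.51 to 0.60).

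**Figure D3:**
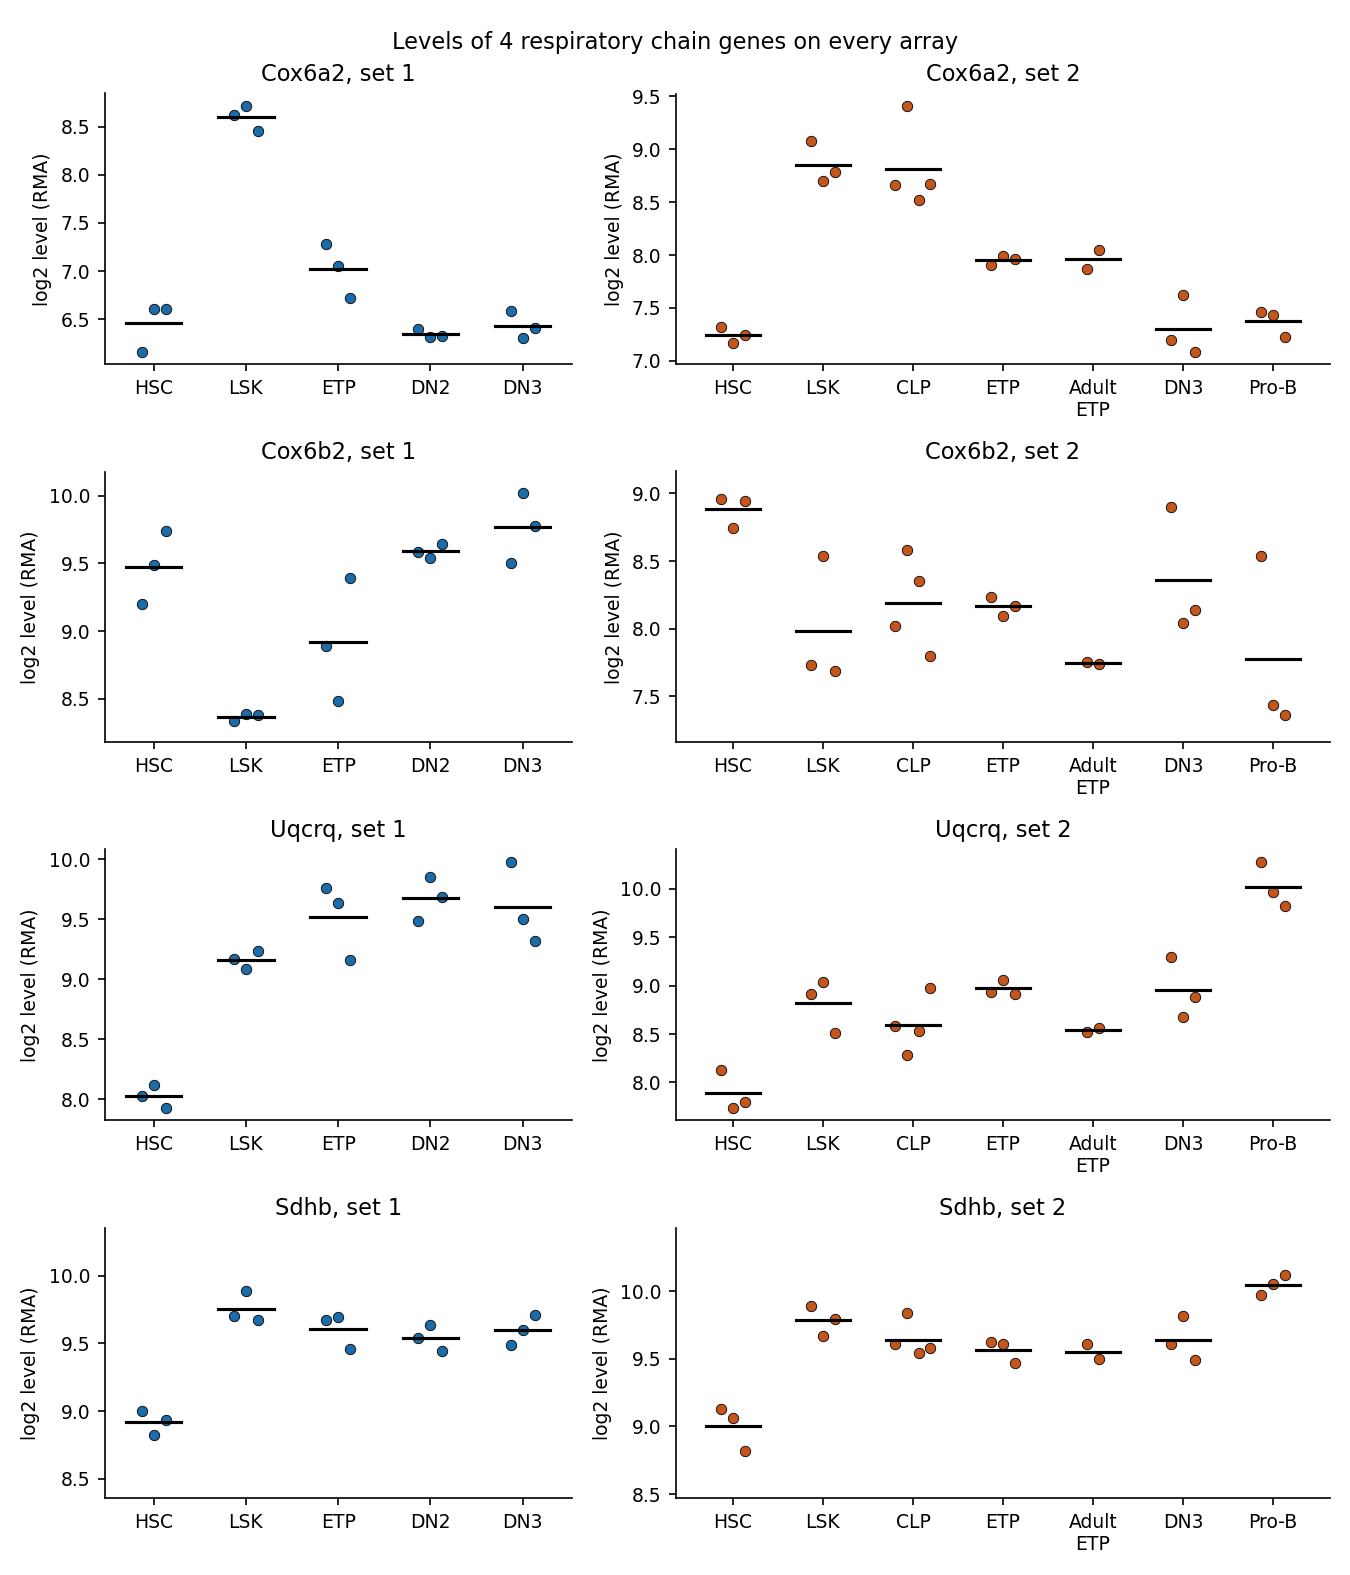
Deposited log2 level of the chosen probe sets of Cox6a2, Cox6b2, Uqcrq and Sdhb on every array, by population and set. Points are arrays and black lines population means, and the y axes differ between panels. Cox6a2 peaks in LSK and CLP and returns to the HSC level by DN2, whereas Uqcrq and Sdhb stay above HSC on every array of all other populations.

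The marrow progenitor labelled CLP was measured in set 2. Against LSK, limma called 0 of 94 genes higher and 0 lower (0.011% and 0.396% of all genes), with a median of -0.07. At an unadjusted p under 0.05 there were 8 of the 94 genes and 1354 of all 18193. Cox6a2 read 8.66, 9.41, 8.52 and 8.68 in CLP, a mean difference from LSK of -0.04. The gene of smallest p was Ndufb4 (1.1 ± 0.32, adjusted p = 0.259), whose signal lay below the median over genes. Cell cycle genes did differ between these populations: 11 of 27 were lower in CLP (median -0.90, led by Ube2c at -2.03). Few genes of any kind were called in this comparison, and a relation between cell cycle and respiratory chain genes was not tested.

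Adult ETP were compared with ETP of set 2. No gene was called in either direction by limma (0.0055% of all genes higher and 0.0715% lower). At an unadjusted p under 0.05 there were 14 of the 94 genes and 2088 of all 18193. The differences nevertheless leaned downward. The median was -0.20, against 0.05 over all genes and -0.10 over genes above the median level, and 44 of the 94 genes had both adult arrays below all 3 ETP arrays, against 16.5% of all genes (24.6% of all genes had both adult arrays above). Without adult ETP replicate 1 the median was -0.10. By complex, the median was -0.28 in complex I, 0.07 in complex II, -0.32 in complex III, -0.03 in complex IV, -0.08 in ATP synthase and -0.34 in the assembly factors. Differences between complexes were not tested. Uqcrfs1 had the smallest p (-0.72 ± 0.20, adjusted p = 0.246). With arrays weighted by quality, 6 genes were called lower. The share of all genes called with these weights is not given here, so this count is not read as particular to the chain. Mitochondrial ribosome genes (-0.26), citric acid cycle genes (-0.31), glycolysis genes (-0.20) and cell cycle genes (-0.30) had negative medians too, and 0 genes of these lists were called. Only 2 adult arrays were measured.

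Many chain genes were higher in pro-B cells than in CLP and DN3. Against CLP, 34 were higher and 4 lower (10% and 6.19% of all genes; median 0.38, all genes 0.04). Against pro-B, DN3 had 3 higher and 27 lower (6.49% and 11.5% of all genes, median -0.36, all genes -0.02). Genes with signals above the median over genes leaned the same way. Of these, 16.3% were higher and 9.94% lower in pro-B than CLP (median 0.10). In DN3 against pro-B, 8.74% of them were higher and 19.9% lower (median -0.16). The 2 comparisons share the pro-B arrays. The counts depended on single arrays: without pro-B replicate 1 or 2, 22 genes differed from CLP in place of 38. Against DN3, 14 and 12 did in place of 30, and 17 without DN3 replicate 6. The median differences under these omissions stayed between 0.33 and 0.37 and between -0.34 and -0.27. Leaving out CLP replicates 1 and 2, which were highest in granulocyte markers, gave 23 calls and a median of 0.36.

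Counts and medians are given by complex, and differences between complexes were not tested. Over all genes, 10% were higher and 6.19% lower in pro-B than CLP. Of genes with signals above the median over genes, 16.3% were higher and 9.94% lower. Complex I had 13 of 34 genes higher in pro-B than CLP and 0 lower (median 0.45), complex III 5 higher and 1 lower of 8 (0.82), ATP synthase 7 higher and 1 lower of 17 (0.36), complex IV 6 higher and 1 lower of 19 (0.08), and complex II 1 higher (Sdhb) and 1 lower (Sdhd, whose other probe set differed by 0.18) of 4 (-0.16). Relative to HSC, complex II stood at 0.02 ± 0.14 in pro-B (SD, n = 3) and at 0.25 to 0.37 in the other populations of set 2. Ndufs5 showed the largest rise, with 9.16, 8.73 and 9.08 in pro-B against 7.80, 7.37, 7.44 and 7.59 in CLP (1.44 ± 0.19, adjusted p = 3.59e-05) and 7.82, 7.94 and 7.18 in DN3. Uqcrq read 10.28, 9.97 and 9.82 in pro-B against 8.59, 8.28, 8.53 and 8.98 in CLP (1.43 ± 0.18, adjusted p = 2.22e-05). Both genes were higher on all pro-B arrays than on any CLP or DN3 array. With all 4 Uqcrq probe sets averaged, the difference from CLP was 0.38 (adjusted p = 0.12).

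**Figure D4:**
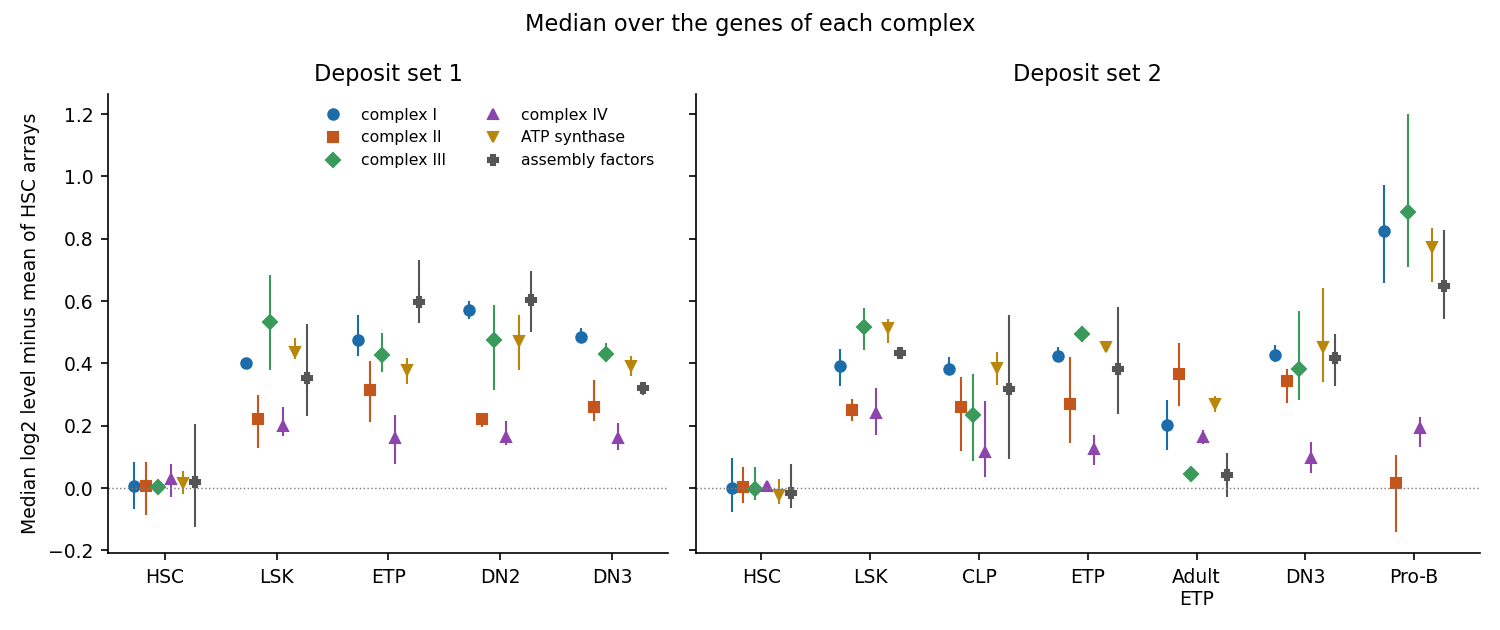
Median over the genes of each complex of the log2 level minus the mean of the HSC arrays of the set; symbols are means over arrays and vertical lines span the lowest to the highest array. All complexes lie above HSC in LSK, complex III and complex I are highest in pro-B (0.89 and 0.83), and complex II in pro-B is at 0.02.

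Atp5g1 (0.88), the core protein Uqcrc1 (0.91) and Uqcr11 (1.00) were also higher in pro-B than CLP, as were Ndufaf3 (1.23 ± 0.24, adjusted p = 0.00151) and the complex II assembly factor Sdhaf2 (1.17). The Atp5g1 call was lost with its probe sets averaged (0.32, adjusted p = 0.143). Cox6a2 moved against the group: at 7.46, 7.44 and 7.22 in pro-B it was below every CLP array (-1.44 ± 0.18, adjusted p = 1.79e-05) and its DN3 minus pro-B difference was -0.07. Cox7a1, a muscle form whose signal lay below the median over genes, was higher in pro-B (0.90, adjusted p = 0.0306), and its call was lost without CLP replicate 3 (0.85, adjusted p = 0.0679), CLP replicate 4 (0.87, adjusted p = 0.0664) or pro-B replicate 1 (0.43, adjusted p = 0.253). Sdhb was higher by 0.40 (adjusted p = 0.027), with calls lost without CLP replicates 1, 3 or 4 or pro-B replicates 2 or 3 (0.37 to 0.40).

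Uqcrb, Sdhd and Atp5h were lower in pro-B than in CLP and DN3. Uqcrb, which binds ubiquinone, read 10.32, 11.48 and 11.64 in pro-B against 11.80, 11.69, 11.84 and 12.07 in CLP (-0.70 ± 0.22, adjusted p = 0.0306), the first pro-B array standing well below the other 2. Without that array, pro-B replicate 1, the difference was -0.29 (adjusted p = 0.211). The call was also lost without CLP replicate 3 (-0.71, adjusted p = 0.0524) or CLP replicate 4 (-0.63, adjusted p = 0.0807). Sdhd read 10.33, 10.32 and 10.73 against 10.77, 10.998, 10.83 and 10.93 (-0.42 ± 0.12, adjusted p = 0.0159; -0.36 and 0.0868 without replicate 1, -0.35 and 0.0829 without replicate 2 of pro-B). Atp5h, a stalk subunit, was lower by 0.39 (adjusted p = 0.0422), a call lost without any CLP array or without pro-B replicates 1 or 2 (-0.41 to -0.21). Probe sets disagreed here: the other probe sets of Uqcrb and Sdhd differed by 0.15 and 0.18 from CLP, and the mean of the Atp5h probe sets by 0.09 (adjusted p = 0.646).

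Agreement between probe sets was counted for each comparison, and differences in it were not tested. For genes called in LSK against HSC, further probe sets above the median level had the same sign in 26 of 28 cases in set 1 and 16 of 16 in set 2. For genes called in pro-B against CLP they did in 17 of 26, and in DN3 against pro-B in 10 of 19. Cox5a is the clearest case. Its chosen probe set read 11.36, 11.61 and 11.53 in pro-B against 10.502, 10.85, 10.80 and 11.01 in CLP, a rise of 0.71 ± 0.13 (adjusted p = 0.00103), while its other 2 probe sets differed by -0.46 and -0.59. With all 3 averaged, the difference was -0.11 (adjusted p = 0.724), and DN3 minus pro-B turned from -0.78 to 0.15 (adjusted p = 0.653). Of the 94 genes, 41 have a single probe set and cannot be checked this way. The ratio of the 3′ to the 5′ control probe sets of Gapdh, a sign of RNA integrity, was 1.70 to 2.08 (log2) on pro-B arrays against 1.97 to 2.82 on CLP arrays and 2.18 to 2.58 on DN3 arrays. Between HSC and LSK this ratio overlapped in both sets. That of Actb was -0.44 to -0.30 in HSC and -0.26 to -0.18 in LSK of set 1. In set 2 it was -0.19 to -0.04 in HSC and -0.07 to -0.01 in LSK. A part of RNA integrity in the LSK against HSC differences was not tested. Macrophage markers averaged 4.58 to 5.86 per array in pro-B against 4.02 to 4.44 in CLP, and granulocyte markers 6.80 to 8.06 against 4.98 to 5.26 in DN3. Their part in the pro-B values was not tested.

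**Figure D5:**
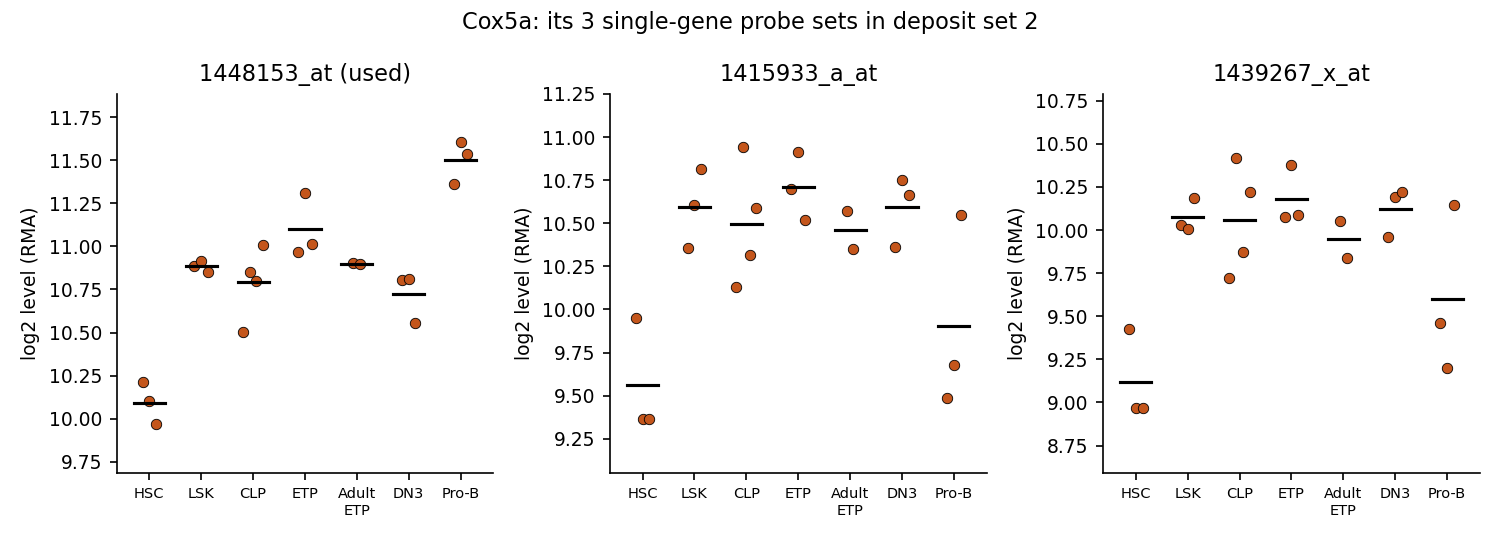
Deposited log2 level of the 3 single-gene probe sets of Cox5a on the arrays of set 2; points are arrays and black lines population means. In all 3 panels HSC is lowest, but pro-B is highest for the chosen probe set and lies below CLP in the mean for the other 2 (-0.59 and -0.46).

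In the wider pathway, 44 of 76 mitochondrial ribosome genes were higher and 1 lower in pro-B than CLP (median 0.59), and 19 of 27 cell cycle genes higher and 3 lower (1.27). Of 20 citric acid cycle genes, 0 were higher and 2 lower (limma), led by the pyruvate dehydrogenase kinase Pdk1 (-2.16). Of 17 regulators of mitochondrial biogenesis 2 were higher and 2 lower (median 0.15). They were led by the transcription factor gene Nrf1 (1.36, adjusted p = 0.00143, limma) and by Ssbp1, which binds mitochondrial DNA (-1.13, adjusted p = 0.000187). Over all genes, 10% were higher and 6.19% lower. The count of regulators called higher was near that share.

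Among the tissue forms of complex IV subunits, calls were few. Of the forms of restricted tissue distribution Cox4i2, Cox7a1, Cox8b, Cox8c and Ndufa4l2, Cox7a1 in pro-B against CLP was the one call in any comparison. All 5 gave signals below the median over genes in both sets, which limits what a missed call says. The calls of Cox4i1, Cox7a2, Cox8a and Ndufa4, the widespread forms, were Cox4i1 and Ndufa4 in LSK against HSC of set 1, Cox4i1 and Cox7a2 in pro-B against CLP (0.49 and 0.69), and Cox4i1, Cox7a2 and Cox8a lower in DN3 than pro-B (-0.59, -0.75 and -0.42). Each of the 3 Cox4i1 calls was lost without some single array, at an adjusted p of 0.0508 to 0.166. Cox7a2l was called in none, with differences between -0.18 and 0.14.

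Across all populations of a set, 45 of 94 genes (47.9%) varied in set 1 by a moderated F test (adjusted p under 0.05), against 28.1% of all genes, and 57 (60.6%) in set 2, against 32.1%. The median range of population means was 0.55 and 0.84 on the log2 scale, against 0.51 and 0.64 over all genes. Among the genes that varied, HSC was the lowest population for 42 of 45 in set 1 and 45 of 57 in set 2. Adult ETP was lowest for 9 of the 57. The highest population was pro-B for 48 of the 57 in set 2, and in set 1 it was DN2 for 18 and DN3 for 14 of the 45. Such counts over all genes that varied are not given here. The lowest and highest populations are therefore not read as particular to the chain.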

How the data were processed

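Values were analysed as the authors deposited them: log2 expression per probe set made with RMA (background correction, normalization between arrays and probe summary), per the submitters' processing notes. The RMA version and log base are not stated there; the range of the values is that of log2. RNA was amplified before labelling, per the labels' protocols, and probe sets differ in affinity, so a signal was set against the median over genes only as a filter and not read as abundance. Each of 18193 genes was taken as its single-gene probe set of highest mean, from 34945 single-gene probe sets of 45101 (932 list several genes, 9160 none). limma 3.58.1 (R 4.3.3) was fitted within each deposit set over all its populations, with a call at Benjamini-Hochberg adjusted p under 0.05 over all genes. The fit was tested on simulated data. The set by population interaction was fitted over all 36 arrays. Members, gene lists and tests were chosen with earlier results of these data known. Genes named were, per comparison and complex, the called member of largest rise and of largest fall, or of smallest p where none was called, plus tissue forms of complex IV and the complex II subunits; other genes named were chosen after their values were seen. Promoter letters came from RefSeq (GRCm38.p6) with Python 3.11.15. Replicate numbers did not pair the arrays: over all genes, same-numbered arrays of different populations had deviations correlating between -0.05 and 0.11 in set 1 and between -0.19 and 0.21 in set 2. Alternatives covered the call rule, model, scaling, probe sets, filter, array weights, block and left-out arrays.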

Additional observations from a re-analysis of the deposited data

Results flagged for a closer look

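Outlying arrays were looked for in CLP, the one population with 4 arrays in a set, over 37 values (the genes named and the complex medians), by the gap of the end array to its neighbour over the whole range. Values past Dixon's 95% limit for 4 samples arise by chance in about 1 in 20 such groups, and 3 of the 37 passed it. Ndufa4 read 11.20, 11.13 and 11.17 on CLP replicates 1 to 3 and 11.53 on replicate 4, the array without a number in its title (0.833). The complex I median relative to HSC was 0.42 on CLP replicate 3 against 0.37, 0.37 and 0.38 on the others (0.836). The complex IV median was 0.28 on CLP replicate 1 against 0.07, 0.08 and 0.03 (0.832); this array was also highest in granulocyte markers (8.89), whose part was not tested.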

How the results depend on the processing

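Directions of the group held in the comparisons with many calls, and counts moved with the setting. At 2-fold, all 18193 genes gave 1496 and 1606 calls in LSK against HSC of sets 1 and 2. They gave 1078 in pro-B against CLP and 1467 in DN3 against pro-B. Shares of all genes under the other settings are not given here, so counts that moved are not read as particular to the chain. Total calls in LSK against HSC (35 in set 1, 30 in set 2) were 6 and 1 at 2-fold, 19 and 19 with the 2 populations fitted alone, 59 and 59 in 1 additive model over both sets, 8 and 19 without arrays high in granulocyte or stroma markers (added after seeing the data; 1 array against 1 in set 1 and 1 HSC array in set 2, assumed to vary like the other populations), and 28 to 39 and 19 to 29 with 1 array left out. Pro-B against CLP (38) had 5, 18 and 23 calls at 2-fold, alone and without those arrays, and 22 to 39 with 1 array left out; DN3 against pro-B (30) had 2 at 2-fold, 8 alone and 12 to 35. The thymic comparisons had few calls. ETP against LSK (1 in each set) had 0 at 2-fold in set 2, and 1 to 1 and 0 to 1 with 1 array left out. DN3 against ETP (3 and 2) had 0 and 0 at 2-fold, 1 and 0 alone, 6 and 6 in the additive model, and 0 to 2 in each set with 1 array left out. DN2 against ETP (1) had 0 at 2-fold, alone, with centred arrays and with averaged probe sets, 2 with array weights, and 0 to 2; DN3 against DN2 (1) had 0 at 2-fold, 2 in the additive model, and 1 to 1. Adult ETP against ETP (0) had 6 with array weights and 0 to 0 with 1 array left out, and CLP against LSK (0) kept 0. With replicate number as a block, which the arrays' deviations did not bear out as a pairing (1 of 30 and 2 of 25 same-numbered pairs over 0.1), calls were 24 in pro-B against CLP, 1 and 1 in DN3 against ETP and 0 in DN2 against ETP, and other counts stayed within 1.5 times. With probe sets averaged, 4 differences turned: Uqcrq in LSK against HSC of set 2 (-0.035), Atp5h (0.088) and Cox5a (-0.11) in pro-B against CLP, and Cox5a in DN3 against pro-B (0.15). No depth is known for arrays; their number limits the precision.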

Other observations

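Further gene lists are given for LSK against HSC, where 9.01% and 9.22% of all genes were called higher and 7.37% and 7.67% lower in sets 1 and 2. Of 16 genes of cytochrome c, coenzyme Q and linked dehydrogenases, 6 were higher and 1 lower in set 1 and 3 higher and 2 lower in set 2. Coq8a, a kinase-like protein of coenzyme Q synthesis, was lower in both (-1.65, adjusted p = 0.000584, and -2.46, adjusted p = 1.47e-05; limma), while Cycs, cytochrome c itself, was higher in set 2 (1.03, adjusted p = 0.000592). Of 33 further assembly genes, 5 and 2 were higher and none lower, with Lrpprc, which steadies mitochondrial messenger RNAs, called in both (1.18 and 0.64). Of 7 uncoupling and antioxidant genes, 1 and 2 were higher, the peroxidase Prdx3 in both (0.72 and 0.71).

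In DN3 against ETP, 3 of 19 glycolysis genes were higher and 6 lower in set 1, and 3 higher and 3 lower in set 2, where 4.2% and 5.74% (set 1) and 3.09% and 5.24% (set 2) of all genes were called higher and lower. The lactate dehydrogenase gene Ldhb rose in both (1.30 and 1.52) and the glucose transporter gene Slc2a3 fell by 1.43 and 1.73.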
